A study of Homo sapiens with 6 samples.

Results

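The apolipoprotein L (APOL) genes of human chromosome 22 were followed by RNA-seq in M14, an established human melanoma cell line, with and without knockdown of STAG2, a subunit of the cohesin complex that shapes DNA loops. The 5 genes APOL1, APOL2, APOL3, APOL4 and APOL6 were taken by symbol from a table of 57820 genes, and each symbol had 1 row. All 6 libraries came from M14 cells that carry a doxycycline-inducible short hairpin RNA against STAG2 and that were kept under puromycin. The 3 WT libraries came from these cells without doxycycline, and the 3 KD libraries from the same cells after 5 days of doxycycline at 5 µg/ml. A single hairpin in a single cell line was used, and no library of doxycycline-treated cells without the hairpin was analysed here, so effects of the drug and of the hairpin cannot be told apart. The labels do not say whether the 3 libraries of a group are separate cultures, while the study describes its replicates as biologically independent samples. The p-values measure the spread between these libraries.

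APOL proteins share a membrane-inserting domain that resembles bacterial colicins and BCL-2 proteins. APOL1 is secreted and travels on high-density lipoprotein, where it forms the pore that kills African trypanosomes, whereas the other members lack a secretion signal and stay inside the cell. Several APOL genes are known to respond to interferon in human cells, and STAT2 and IRF9 are among the transcription factors through which type I interferon acts.

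Total expected counts per library were 24895998, 35181733 and 29157038 in WT replicates 1, 2 and 3, and 30143957, 31155103 and 33089945 in KD replicates 1, 2 and 3. Levels are given as CPM (counts scaled to the library's total) scaled with edgeR's TMM factors. A count of 3 corresponded to between 0.087 and 0.112 CPM, depending on the library. WT replicate 1 stood apart from the other WT libraries. It had 5.08% of counts on mitochondrial genes, against 2.12% and 2.34% in WT replicates 2 and 3, and the melanosome gene PMEL was at 3370 CPM there, against 662 and 684 CPM. KD replicate 1 was not set apart by its mitochondrial share, at 2.95% against 2.81% and 2.25%, but PMEL was higher there too, at 1254 CPM against 358 and 364 CPM. All 8 melanocyte lineage markers (MLANA, PMEL, TYR, DCT, TYRP1, MITF, SOX10 and S100B) were detected in every library, and the labelled cell type was therefore not contradicted by its markers.

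STAG2 itself was measured first, and values are in the order of replicates 1, 2 and 3 here and in what follows. The WT replicates were at 66.5, 34.8 and 28.8 CPM and the KD replicates at 16.0, 7.31 and 6.69 CPM, so that every KD library was below every WT library. STAG2 fell by 2.12 on the log2 scale (SE 0.43, edgeR quasi-likelihood test with Benjamini-Hochberg adjustment, adjusted p = 0.0342). The adjusted p was 0.0757, 0.0652, 0.168 and 0.152 when WT replicate 2, WT replicate 3, KD replicate 2 or KD replicate 3 was left out, and the log2 fold change lay between -2.63 and -1.68 over the 6 fits that left out 1 library. It was 0.000104 with the replicate number as a block, a term that compares each KD library with the WT library of the same number, and 0.00298 without replicate 1 in both groups.

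APOL1 had the highest CPM of the 5 genes in every library. It was the one gene of them to pass the main edgeR test, which had no replicate block. The WT replicates were at 20.8, 49.1 and 51.5 CPM and the KD replicates at 133, 155.5 and 217 CPM. The lowest KD library was above the highest WT library, and replicate 1 was the lowest of its group in both conditions. APOL1 rose 4.16-fold, by 2.06 on the log2 scale (SE 0.35, 95% confidence interval 1.28 to 2.83, n = 3 libraries per group, edgeR adjusted p = 0.0150). The adjusted p was 0.0532 without WT replicate 3, 0.0604 without KD replicate 2 and 0.0854 without KD replicate 3, and the log2 fold change lay between 1.74 and 2.26 in all 6 fits that left out 1 library. Without replicate 1 in both groups it was 1.90 (adjusted p = 0.00270). With the replicate block it was 2.13 (SE 0.20, edgeR adjusted p = 0.0001415).

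APOL2 encodes an intracellular member found at the endoplasmic reticulum. The WT replicates were at 15.2, 31.6 and 33.3 CPM and the KD replicates at 55.2, 64.7 and 91.6 CPM, and the groups did not overlap. The log2 fold change was 1.40 (SE 0.32, 95% confidence interval 0.68 to 2.12), and the edgeR test missed the threshold at an adjusted p of 0.0572. With the replicate block the log2 fold change was 1.45 (SE 0.20, edgeR adjusted p = 0.00140). The edgeR adjusted p was 0.0489 without WT replicate 1 and between that value and 0.261 when any single library was left out.

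APOL6 encodes a member with a BH3-like motif that has been linked to cell death. The WT replicates were at 17.5, 20.9 and 18.4 CPM and the KD replicates at 40.2, 31.4 and 60.6 CPM. The KD libraries all lay above the WT libraries, and the WT libraries lay closer together than those of APOL1 or APOL2. Its log2 fold change was 1.22 (SE 0.27, 95% confidence interval 0.61 to 1.83, edgeR adjusted p = 0.0505), and with the replicate block it was 1.17 (SE 0.23, edgeR adjusted p = 0.0116).

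APOL3, whose product is an interferon-induced protein that breaks open the membranes of bacteria in the cytosol, was at lower levels. The WT replicates were at 0.977, 6.47 and 2.59 CPM and the KD replicates at 6.29, 9.04 and 11.1 CPM. The groups overlapped, because WT replicate 2 was above KD replicate 1. APOL3 had a log2 fold change of 1.39 with an SE of 0.62, and the 95% confidence interval ran from -0.01 to 2.79 (edgeR adjusted p = 0.341). With the replicate block it was 1.74 (95% confidence interval 0.66 to 2.82, edgeR adjusted p = 0.0508). Leaving out 1 library moved the log2 fold change between 0.95 without WT replicate 1 and 2.31 without WT replicate 2, and it was not called in any of these 6 fits.

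APOL4 had the lowest CPM of the 5 genes in every library except WT replicate 1, where APOL3 was lower. The WT replicates were at 1.23, 1.16 and 1.32 CPM, from 33.0, 40.0 and 36.3 expected counts, and the KD replicates at 0.716, 1.11 and 0.415 CPM, from 23, 32.9 and 13.6 expected counts. Every KD library was below every WT library, the opposite order to APOL1, APOL2 and APOL6. APOL4 had a log2 fold change of -0.71 with an SE of 0.99 and a 95% confidence interval from -2.93 to 1.51 (edgeR adjusted p = 0.833). A change of APOL4 was therefore not detected, and KD replicate 2 and WT replicate 1 held nearly the same expected count.

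**Figure D1:**
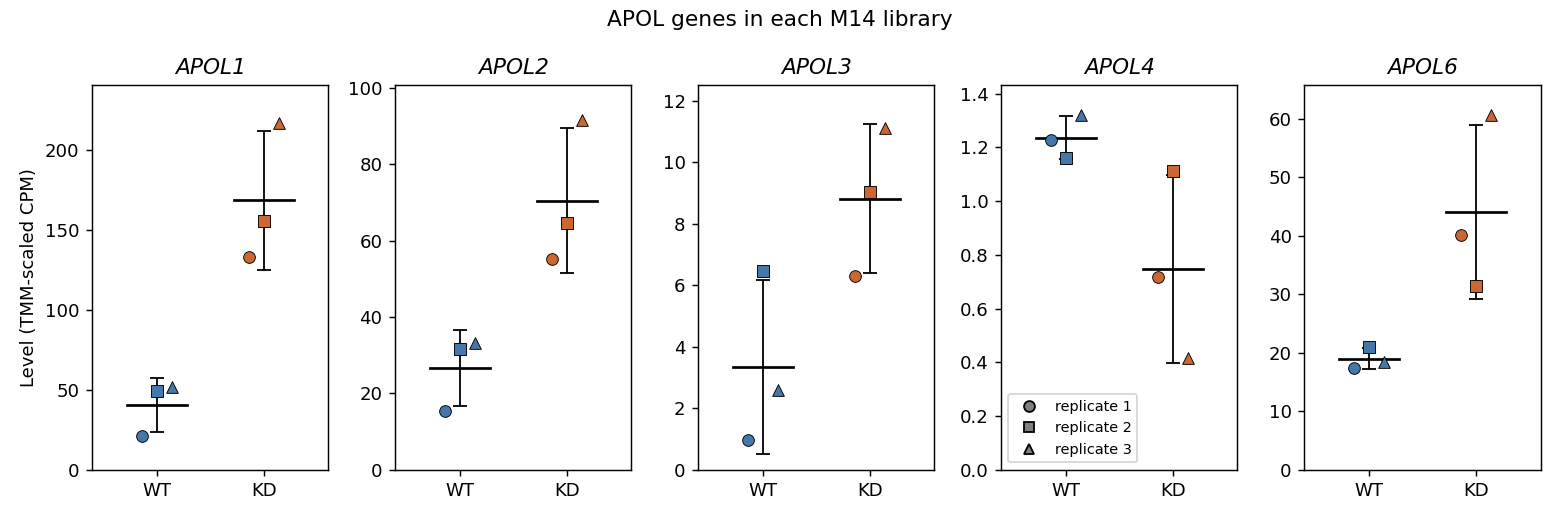
Level of each APOL gene in each library, in TMM-scaled CPM on a linear axis from 0 that differs between panels. Symbols are libraries by replicate number, lines are group means and bars are SD (n = 3 libraries per group). The WT and KD symbols do not overlap for APOL1, APOL2, APOL4 and APOL6, and overlap for APOL3.

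One of the 5 genes, APOL1, passed the threshold of an adjusted p under 0.05, and it was higher in KD. Over all 15605 genes tested, 404 passed in either direction (2.59%) and 273 were higher in KD (1.75%). With the replicate block APOL1, APOL2 and APOL6 were called higher and none lower, against 5.1% and 4.42% of all genes tested (9.52% in either direction). DESeq2 also called these 3 genes higher and none lower, against 3.51% and 2.77% of genes (6.27% in either direction). By limma-voom APOL1 and APOL2 were called higher and none lower, against 1.76% and 0.878% (2.64% in either direction). The median log2 fold change of the 5 genes was 1.39 and that of all genes tested was -0.03. For APOL1, APOL2 and APOL6 the KD libraries all lay above the WT libraries, an arrangement met by 11.8% of all genes tested, and for APOL4 they all lay below, as for 10.5% of genes. The two-sided exact permutation test of each of these genes gave p = 0.1, the smallest value that 3 against 3 libraries allow.

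**Figure D2:**
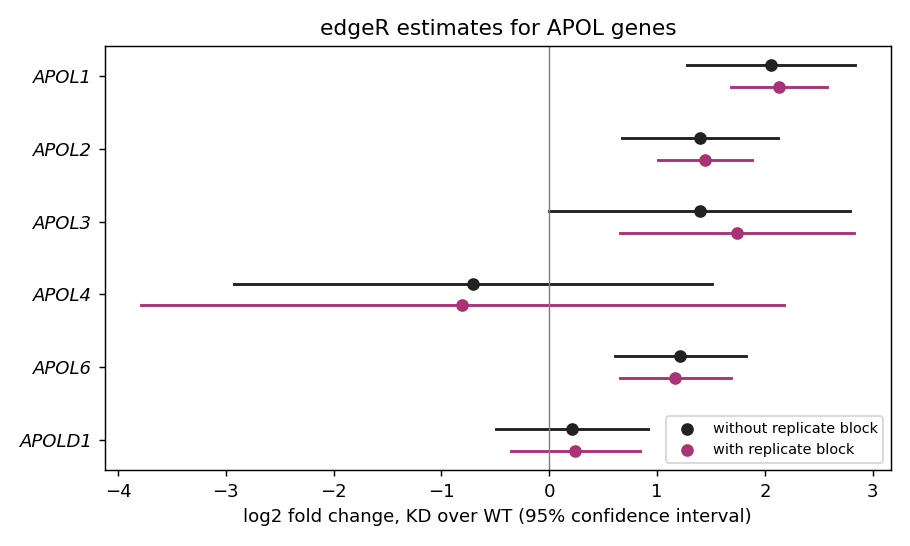
The log2 fold change of KD over WT for the 5 APOL genes and APOLD1, a related gene on chromosome 12, from edgeR without and with the replicate block (points), with 95% confidence intervals (lines). The intervals of APOL1, APOL2 and APOL6 lie above 0 in both fits, and those of APOL4 and APOLD1 include 0 in both.

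Relatives outside the 5 genes were read from the same fit. APOL5, which lies between APOL6 and the other members, was at 0 counts in all 6 libraries, which allows up to 3 counts in each. APOLD1, an endothelial early-response gene with a similar domain, was at 12.33, 7.46 and 12.7 CPM in WT and 11.4, 11.7 and 14.6 CPM in KD. Its groups overlapped and its log2 fold change was 0.21 (SE 0.32, 95% confidence interval -0.49 to 0.92, edgeR adjusted p = 0.846).

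Levels of different genes were compared per kilobase of the canonical transcript. In WT, APOL1 was at 14.5 ± 6.10 and APOL2 at 10.99 ± 4.10 CPM per kilobase (SD, n = 3), and APOL1 was above APOL2 in each library. APOL6 was at 1.88 ± 0.18 and APOL3 at 1.64 ± 1.39 CPM per kilobase, which did not differ beyond their spread, and APOL4 was lowest at 0.403 CPM per kilobase. In KD the order of the means was the same, with APOL1 at 60.2 ± 15.6, APOL2 at 29.0 ± 7.78, APOL6 at 4.38 ± 1.49, APOL3 at 4.32 ± 1.19 and APOL4 at 0.244 CPM per kilobase. APOL6 and APOL3 again lay within each other's spread. APOL6 has a canonical transcript of 10065 bases, against 2429 bases for APOL2, so similar CPM values of these genes correspond to unlike levels per kilobase.

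The summed level of the 5 genes was 55.7, 109 and 107 CPM in the WT replicates and 235, 262 and 381 CPM in the KD replicates. The sum does not depend on how reads are divided among APOL genes. It was 3.22-fold higher in the KD mean than in the WT mean, and the groups did not overlap. APOL1 made up 43.5% ± 5.51 of the summed CPM in WT and 57.6% ± 1.57 in KD (SD, n = 3). The share of APOL2 was 29.1% in WT and 24.1% in KD, and that of APOL6 was 22.6% and 15.0%.

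Ratios between members within a library were compared for all 10 pairs, of which 6 did not overlap between the groups. The pairs share members and are not independent. Of all single genes tested, 22.3% did not overlap in either direction, and no such share was computed for ratios of other genes. The ratio of APOL1 to APOL2 was 1.37, 1.56 and 1.55 in the WT replicates and 2.41, 2.40 and 2.37 in the KD replicates. The SD of the KD ratios was 0.021 around a mean of 2.39, while the level of APOL1 itself spanned 1.64-fold in those libraries. The log2 ratio was 0.69 higher in KD (SE 0.06). The exact permutation test gave p = 0.1, the smallest possible, and 0.167 after adjustment over the 10 pairs, so no pair could pass the threshold by this exact test. The ratio of APOL1 to APOL6 did not overlap between the groups either, at 1.19, 2.35 and 2.80 in WT and 3.30, 4.95 and 3.58 in KD (log2 difference 0.97, SE 0.41). The ratios of APOL2 to APOL6 (log2 difference 0.28, SE 0.36) and of APOL1 to APOL3 (0.38, SE 0.49) overlapped, as did those of APOL2 to APOL3 (-0.31, SE 0.53) and APOL3 to APOL6 (0.59, SE 0.76). All 4 ratios with APOL4 did not overlap. The log2 difference was 2.97 for APOL1 to APOL4 (SE 0.72), 2.59 for APOL3 to APOL4 (SE 0.98), 2.29 for APOL2 to APOL4 (SE 0.69) and -2.004 for APOL4 to APOL6 (SE 0.70), each resting on the low counts of APOL4.

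**Figure D3:**
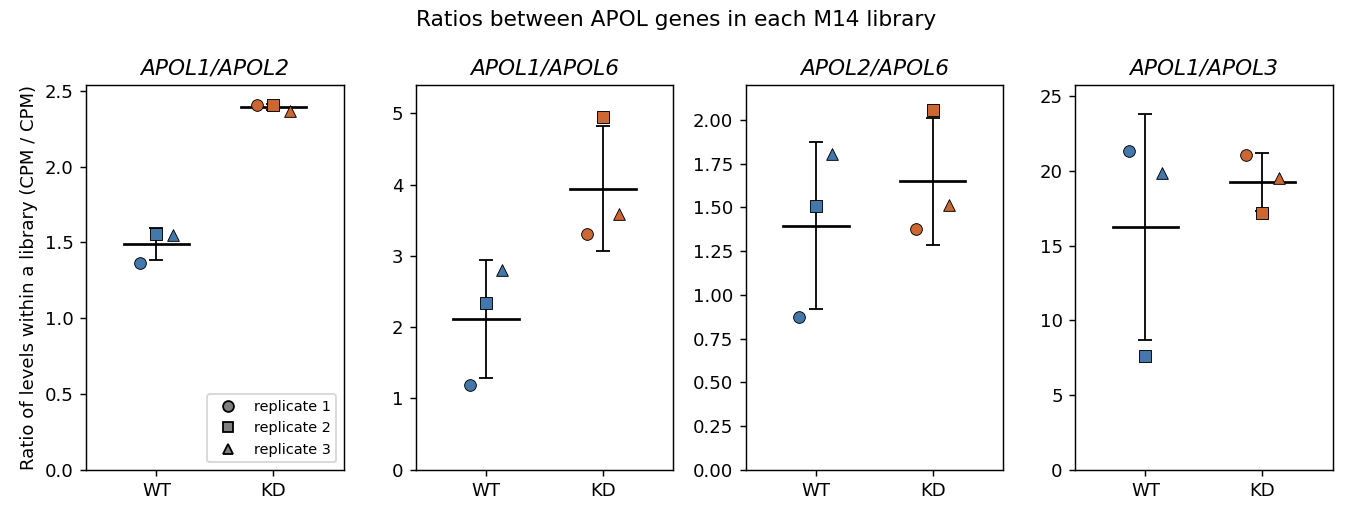
Ratio of the CPM of one APOL gene to that of another within each library, on linear axes from 0. Symbols are libraries by replicate number, lines are means and bars are SD (n = 3). The KD ratios of APOL1 to APOL2 lie between 2.37 and 2.41, above all 3 WT ratios, while APOL2 to APOL6 overlaps between groups.

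The members differed in how far libraries of 1 group spread. In WT the highest library was 2.47-fold above the lowest for APOL1, 2.18-fold for APOL2 and 6.63-fold for APOL3, against a median of 1.66-fold over 13535 genes with a mean of at least 1 CPM. APOL6 and APOL4 spread by 1.20-fold and 1.14-fold in WT. In KD the order turned, with 2.68-fold for APOL4 and 1.93-fold for APOL6, against 1.64-fold for APOL1, 1.66-fold for APOL2, 1.77-fold for APOL3 and a median of 1.51-fold. Replicate 1 was the lowest library of its group for APOL1, APOL2 and APOL3 in both conditions. The ratio of KD to WT within replicates 1, 2 and 3 was 6.37, 3.17 and 4.21 for APOL1, and 3.62, 2.05 and 2.75 for APOL2. For APOL3 it was 6.44, 1.40 and 4.30, the highest of the 5 genes in replicates 1 and 3, and for APOL6 it was 2.30, 1.501 and 3.29. Replicate 2 had the smallest ratio for each of these 4 genes. For APOL4 the ratio was 0.583, 0.961 and 0.314.

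Genes most alike in pattern were ranked by Pearson r of log2(CPM + 1) with each member over the 6 libraries, among those 13535 genes. The libraries form 2 groups, and their depths and replicate numbers are the same for every gene, so these values are descriptions only. For APOL1 the closest were MSX1 (r = 0.997), BTN2A1 (0.996) and HMGXB3 (0.995), and for APOL2 they were STRN4 (0.998), LAPTM4A and TMCO4 (both 0.996). For APOL3 they were MARS2 (0.992), DNMBP and VSIG10L (both 0.990). For APOL6 they were DGKG (0.993), LMO2 and MCL1 (both 0.989), and for APOL4 they were RP11-599J14.2, MEX3A (both 0.991) and CTB-55O6.12 (0.989).

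The genes lie together on chromosome 22 (hg19). APOL3 (ENSG00000128284.15, chr22:36536377-36562225, minus strand), APOL4 (ENSG00000100336.13, chr22:36585172-36600886, minus), APOL2 (ENSG00000128335.9, chr22:36622255-36636000, minus) and APOL1 (ENSG00000100342.16, chr22:36649117-36663576, plus) span 127 kb. APOL6 (ENSG00000221963.5, chr22:36044493-36064451, plus) lies apart from them, beyond APOL5 and RBFOX2. APOL1 and APOL2 point away from each other and are separated by 13.1 kb, and 21.4 kb separate APOL2 from APOL4.

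Of 16 listed neighbouring genes 12 were tested, none was called higher and 1 was called lower, against 1.75% and 0.839% of all genes tested. The unadjusted edgeR p was under 0.05 for 0 higher and 3 lower neighbours. DESeq2 also called 0 higher and 1 lower, beside 3.51% and 2.77% of all genes tested, and limma-voom called none in either direction. The median log2 fold change of the 12 was -0.09. MB, the myoglobin gene beside APOL6, was at 0.820, 11.7 and 20.6 CPM in the WT replicates and at 0, 0.169 and 0.184 CPM in the KD replicates (edgeR adjusted p = 0.0301). Its call was lost when WT replicate 2, WT replicate 3 or any KD library was left out, with 0 neighbours called in each of those fits. They called between 121 and 241 genes over the whole table, against 404 with all libraries. MYH9, the non-muscle myosin gene 13.8 kb past APOL1, had a log2 fold change of -0.01 (SE 0.29, edgeR adjusted p = 0.995). RBFOX2, a splicing regulator on the other side of the cluster, had a log2 fold change of -0.18 (SE 0.18, edgeR adjusted p = 0.753). RASD2 was at 0.559, 3.08 and 4.19 CPM in WT and 0, 0 and 0.459 CPM in KD (edgeR adjusted p = 0.283).

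**Figure D4:**
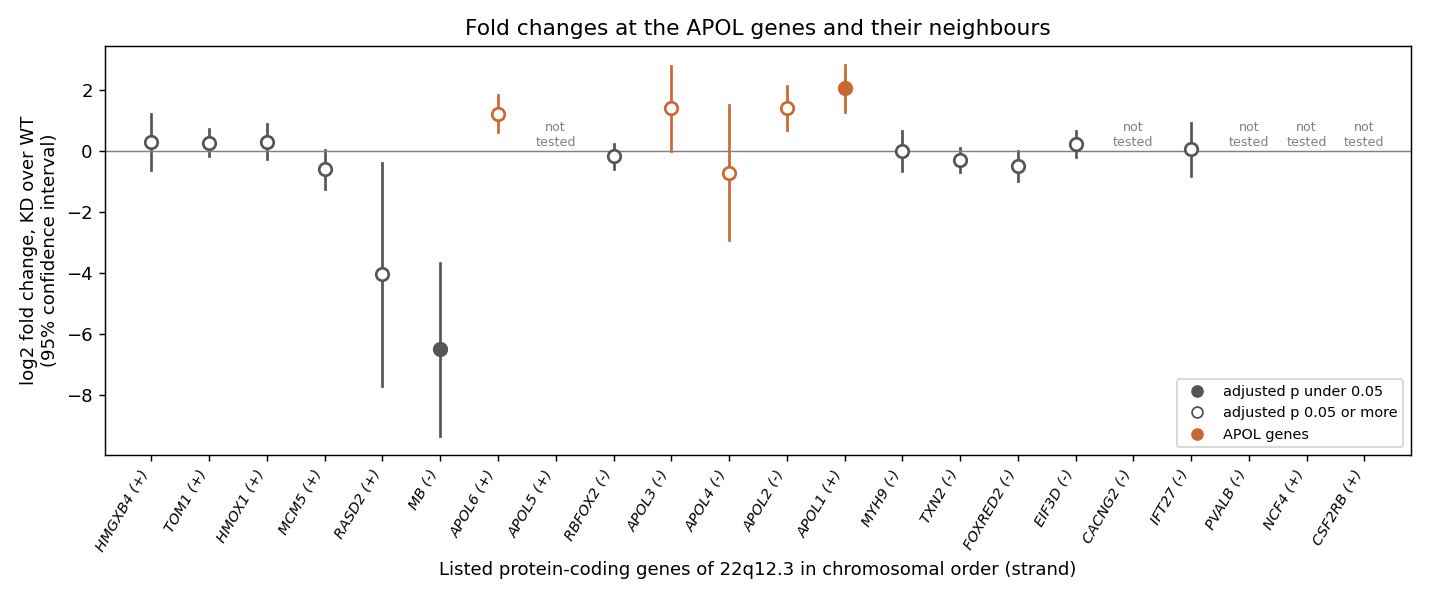
The log2 fold change of KD over WT (points) with 95% confidence intervals (lines) for the APOL genes, in orange, and listed neighbours in chromosomal order, evenly spaced. Filled points passed the threshold, which APOL1 did upward and MB downward. Genes marked as not tested had too few counts.

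Interferon genes were read beside the APOL genes as lists. Of 15 receptors and signal transducers 5 were called higher and none lower, against 1.75% and 0.839% of all genes tested. The median log2 fold change was 0.43, against -0.03 for all genes. IRF9, the DNA-binding subunit of the type I interferon complex, was at 19.0, 21.5 and 19.9 CPM in WT and 130.3, 123 and 128 CPM in KD and rose by 2.66 on the log2 scale (SE 0.18, edgeR adjusted p = 6.49e-05), and STAT2 by 1.94 (SE 0.23, edgeR adjusted p = 0.00184). IRF7 rose by 3.44 and NLRC5, the activator of class I antigen presentation genes, by 2.705. IRF1, through which interferon gamma acts on many targets, had a log2 fold change of 0.16 (edgeR adjusted p = 0.933). The replicate block added a sixth call, IRF2 (log2 fold change 1.04, edgeR adjusted p = 0.0177). With that block 5.1% of all genes tested were called higher. None of the 15 had an unadjusted edgeR p under 0.05 in the lower direction, and DESeq2 and limma-voom called none lower.

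Of 38 interferon-induced antiviral genes tested, 36 were called higher and none lower, against 1.75% and 0.839% of all genes tested. Their median log2 fold change was 3.63, above the fold changes of all 5 APOL genes. The other 2 were DDX60 (edgeR adjusted p = 0.0628) and IFITM2. The replicate block called DDX60 too (log2 fold change 2.29, edgeR adjusted p = 0.00242), for 37 of 38. With that block 5.1% of all genes tested were called higher. IFI6, the most abundant by its mean over the 6 libraries though not in WT, was at 72.5, 74.1 and 74.9 CPM in WT and 5322, 3078 and 5164 CPM in KD. ISG15, a ubiquitin-like modifier, was at 13.6, 29.5 and 27.1 CPM in WT and 1362, 901 and 1410 CPM in KD. RSAD2 was at 0.037, 0.029 and 0 CPM in WT and 40.3, 21.3 and 47.6 CPM in KD. No antiviral gene had an unadjusted edgeR p under 0.05 in the lower direction, and DESeq2 and limma-voom called none lower.

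Genes of the defence against bacteria in the cytosol, in which APOL3 acts, were also read as a list. Of 8 tested, 5 were called higher and none lower, against 1.75% and 0.839% of all genes tested. Their median log2 fold change was 1.27. RNF213, a ubiquitin ligase that coats bacteria, was at 141, 187 and 109 CPM in WT and 392, 740 and 722 CPM in KD (log2 fold change 2.09, SE 0.30, edgeR adjusted p = 0.00717). The guanylate-binding proteins GBP1, GBP2 and GBP3 rose by 1.81, 1.54 and 1.34 on the log2 scale, and CASP4, which senses bacterial lipopolysaccharide, by 1.20. GSDMD, the pore former cut by CASP4, had a log2 fold change of -0.00 (SE 0.18, edgeR adjusted p = 0.999). Without WT replicate 3 there was 1 call, and without KD replicate 3 there were 0. Those fits called 165 and 121 genes over the whole table, against 404 with all libraries. Each of WT replicate 2, KD replicate 1 and KD replicate 2 left 3 calls when it was left out. The fits without them called 177, 241 and 146 genes over the whole table. No gene of the list had an unadjusted edgeR p under 0.05 in the lower direction, and DESeq2 and limma-voom called none lower.

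Lists tied to other APOL functions were read in the same way. None of 13 BCL-2 family genes was called by edgeR without the replicate block, except 1 with no filter on low counts. Their median log2 fold change was -0.14. The unadjusted edgeR p was under 0.05 for 2 higher and 3 lower members. DESeq2 called 1 in each direction, beside 3.51% of all genes tested higher and 2.77% lower, and limma-voom called none. The replicate block called 3 higher and 2 lower, 5 of 13 beside 9.52% of all genes tested. These were MCL1, BCL2L1 and BCL2A1 among the higher and BMF and BAD among the lower. MCL1, which restrains cell death, was at 123, 124 and 129 CPM in WT and 191, 173 and 240.2 CPM in KD (log2 fold change 0.68, SE 0.19, edgeR adjusted p = 0.115, and 0.0194 with the replicate block). BCL2L1 had a log2 fold change of 0.76 (SE 0.24, edgeR adjusted p = 0.157, and 0.0203 with the replicate block). BMF, a BH3-only promoter of cell death, was at 26.0, 26.1 and 26.0 CPM in WT and 12.6, 14.4 and 15.6 CPM in KD (log2 fold change -0.87, SE 0.23, edgeR adjusted p = 0.0911, and 0.0252 with the replicate block). For BAD, another BH3-only gene, the log2 fold change was -0.72 (SE 0.22, edgeR adjusted p = 0.142, and 0.0400 with the replicate block). Of 4 tested genes for phosphatidylinositol 4-phosphate and calcium sensing at the Golgi none was called, the unadjusted edgeR p was under 0.05 for 1, and DESeq2 and limma-voom called none. The block called 1 of them, PI4KB, beside 9.52% of all genes tested.

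Plasma lipoprotein genes were largely silent. Only 6 of 19 had enough counts to be tested and 8 were at 0 in all 6 libraries, including APOB and HPR. APOD, a lipocalin found on high-density lipoprotein, rose from 5.14, 2.47 and 1.78 CPM in WT to 12.7, 18.5 and 12.6 CPM in KD (log2 fold change 2.22, SE 0.45, edgeR adjusted p = 0.0349). That call was lost when any library except WT replicate 1 was left out. CLU, which encodes the chaperone clusterin, was at 13.4, 90.2 and 91.7 CPM in WT and 73.0, 292 and 213.5 CPM in KD (log2 fold change 1.57, SE 0.66, edgeR adjusted p = 0.308, and 0.000802 with the replicate block). Its groups overlapped, and as with APOL1 replicate 1 was the lowest in both conditions.

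**Figure D5:**
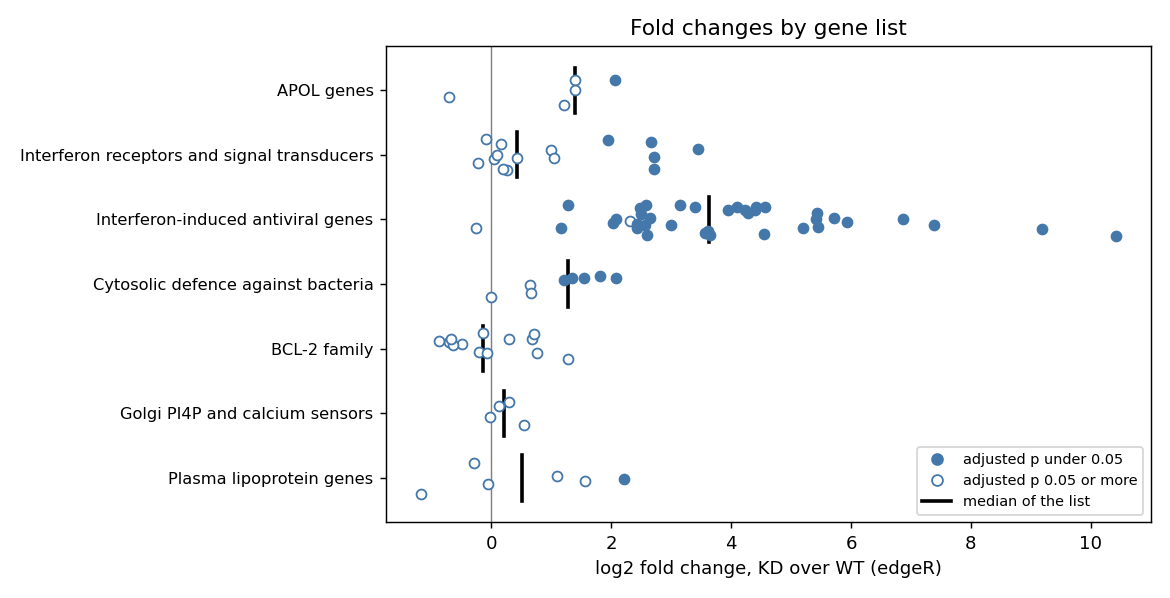
The log2 fold change of KD over WT from edgeR for every tested gene of each list (points, filled where the adjusted p was under 0.05), with the list's median (black line) and random vertical scatter. The median is 1.39 for the APOL genes, 3.63 for the antiviral genes and 1.27 for the cytosolic defence genes, and the value at the far right, RSAD2, rests on at most 1 count in each WT library.

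Markers of cell types other than melanoma cells, and of lineage state, were read in the same libraries. The summed level of the 8 melanocyte markers, with PMEL the most abundant by its mean over the 6 libraries, was 6311, 1916 and 1861 CPM in WT and 2606, 1267 and 1195 CPM in KD. SOX10 was above PMEL in WT replicate 2, KD replicate 2 and KD replicate 3. S100B was called lower (edgeR adjusted p = 0.00949) and the other 7 were not called, beside 0.839% of all genes tested called lower. The edgeR adjusted p of S100B reached 0.0865 when 1 library was left out. With the replicate block 6 of the 8 were called lower, beside 4.42% of all genes tested. DESeq2 called 2 of the 8 lower, beside 2.77% of all genes tested, and limma-voom 1, beside 0.878%. Within each condition replicate 1 was highest in this sum and lowest in APOL1 and APOL2. The part of lineage state in the APOL values was not tested. Of 5 immune markers CD68, a lysosomal glycoprotein that is not restricted to macrophages, made up nearly all of the sum, at 25.3, 39.1 and 36.3 CPM in WT and 125.3, 88.9 and 88.4 CPM in KD (log2 fold change 1.59, edgeR adjusted p = 0.00855). CD3E was at 0 in all libraries, and PTPRC, present on all white blood cells, was at 0 in 5 libraries and 0.583 CPM in WT replicate 3. Of 4 endothelial markers in the table TEK was at 0 in every library, and VWF was the most abundant at no more than 5.45 CPM. Of 4 podocyte markers, listed because APOL1 is studied in these kidney cells, PODXL was the most abundant in every library except WT replicate 1, at 3.65, 43.3 and 52.3 CPM in WT and 2.93, 38.0 and 33.3 CPM in KD. Replicate 1 was the lowest in both conditions, as for APOL1 and APOL2, and the groups overlapped. In bulk RNA a change in the number of cells that express a gene and a change in RNA per cell cannot be told apart.

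Sequence shared between genes limits how RSEM can assign reads. Of the 50-base windows of the canonical APOL1 transcript, 5.35% also occurred in a transcript of another gene, and 5 and 9 of its 2746 windows occurred in APOL2 and APOL3. The share was 2.14% for APOL2, 0.452% for APOL3, 0.379% for APOL6 and 8.05% for APOL4, none of whose windows occurred in another APOL gene.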

How the data were processed

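M14 libraries (3 WT, 3 KD) were made from poly(A) RNA with a directional kit. The authors aligned reads with STAR to hg19 and deposited RSEM expected counts per gene. Expected counts were rounded, filtered with filterByExpr (15605 of 57820 genes kept), TMM-scaled and tested with edgeR 4.0.16 (glmQLFit, glmQLFTest, R 4.3.3) without covariates, with Benjamini-Hochberg adjustment over all genes tested and a threshold of 0.05. SE is the absolute log2 fold change over the square root of F. DESeq2 1.42.0, limma-voom (limma 3.58.1), other filters and normalization, a replicate block and leaving out libraries were alternatives. Scripts were tested on simulated data. Replicate numbers come from the titles. Deviations from the group mean correlated at 0.56, 0.395 and 0.327 over 11573 genes for libraries of the same number. For other pairs they correlated at -0.46 to 0.235. Replicates 2 and 3 were less clearly told apart, with 0.235 and 0.191 for their crossed pairs. The replicate block took the numbers as pairs. The main test did not use them, because the study's RNA-seq methods name no pairing.

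The members and gene lists were chosen with earlier results of these data known. Named genes were STAG2, the 5 members, APOL5, APOLD1, all neighbours and the cell type markers. Of each other list they were the 4 called genes with the largest change and the 2 most abundant, and for each member the 3 most alike genes. CASP4, IRF1, IRF2, BCL2A1, BMF, BAD, DDX60, IFITM2, PI4KB, APOB and HPR are named in addition, chosen after their values were seen. PECAM1 was not analysed here. Gene positions and transcript lengths are from GENCODE v44 lifted to GRCh37. No sequences of the APOL genes are printed. Some genes of the lists are not reported here.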

Additional observations from a re-analysis of the deposited data

How the results depend on the processing

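All 5 APOL genes kept the sign of their log2 fold change under every alternative in which they were tested, and STAG2 did too. The number of genes called over the whole table was 404 of 15605 tested. Of the same number tested it was 979 with DESeq2, 412 with limma-voom and 1486 with the replicate block. It was 1103 of 24277 tested with no filter on low counts, and 452 of 12743 with at least 10 counts in every library. Without replicate 1 in both groups, an alternative chosen after seeing the data, it was 757 of 15991. Leaving out 1 library gave between 121 and 531. The number of APOL genes called was 1, and it was 3 with DESeq2, with no filter, with at least 10 counts in every library and with the replicate block, 2 with limma-voom and without replicate 1 in both groups, and between 0 and 2 when 1 library was left out. Neighbours called were 1, and 0 with limma-voom and with at least 10 counts in every library, 2 without replicate 1 in both groups, and between 0 and 1 when 1 library was left out. BCL-2 family calls were 0, and 2 with DESeq2, 1 with no filter and 5 with the replicate block. The replicate block gave 1 call among the Golgi genes and 2 among plasma lipoprotein genes, where 2 were also called with no filter and without replicate 1 in both groups, and between 0 and 1 when 1 library was left out. Cytosolic defence calls were between 0 and 4 when 1 library was left out. Interferon transducer and antiviral calls stayed within 1.5 times their counts. The replicate block, which pairs the libraries by number, changed the call of no APOL gene other than APOL2 and APOL6. The log2 difference of the summed APOL level was 1.72 and lay between 1.40 and 1.89 when 1 library was left out. The cause of these shifts was not tested. Expected counts reached at most 363 for APOL3 and 40 for APOL4 in a library, and the part of depth in their errors was not tested.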
